A study of Mus musculus with 36 samples.

Results

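The comparison set wild-type (wt) mouse macrophages that had received cholesterol crystals and then cyclodextrin against untreated wt macrophages. The members were all arrays labelled CD_crystals_wt, 5 in number, and all arrays labelled none_none_wt, 5 in number, which made 10 of the 36 arrays of the series. The cells were grown from the bone marrow of C57BL/6 mice of 2 to 5 months with M-CSF, the growth factor of macrophages. The cells of CD_crystals_wt carried cholesterol crystals for 3 h, were washed free of the excess, and then received 10 mM cyclodextrin (CD), a cyclic sugar whose cavity takes up cholesterol, for 4 h, whereas the untreated cells received neither. Beside them stand wt cells given crystals alone or CD alone (5 arrays each), and cells of mice without LXRα and LXRβ (double knockout, dko), of the same strain and age range, given crystals plus CD or nothing (4 arrays each). Within a group the arrays carry a number (1 to 5 in wt) that the labels do not tie to an animal, a culture or a day, so the p-values rest on the spread between arrays, part of which may be technical. Neither another particle nor a vehicle was among the groups used here.

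Macrophages that take up crystalline cholesterol digest part of it in lysosomes and pass it to other membranes. Free cholesterol in the endoplasmic reticulum holds the transcription factor SREBP2 inactive, which lowers the genes of sterol synthesis and uptake, while oxidised cholesterol activates the liver X receptors (LXR), which raise genes of cholesterol export. Crystals can also injure lysosomes and start stress and inflammatory programmes, and CD can carry cholesterol either out of or into a membrane. The purpose of the series was to learn if LXR mediates what CD does to the expression of genes in macrophages, and the present comparison shows the sum of loading and CD.

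Levels are normalized log2 intensity, and changes are differences of mean levels, crystals plus CD minus untreated, with the standard error (SE) of limma's model. A gene was called when limma's adjusted p lay under 0.05, and it "rose" or "fell" below only if called. Array medians before normalization ran from 86.6 to 128 intensity units over the 10 arrays, and 15744 to 17534 probes were detected on the arrays of crystals plus CD and 15342 to 17892 on the untreated arrays. Arrays of a group correlated over genes at 0.972 to 0.990 for crystals plus CD and 0.975 to 0.993 for untreated cells. All 8 defining macrophage markers were detected on all 10 arrays, with a summed intensity of 46500 to 58100 units in crystals plus CD and 52100 to 56800 in untreated cells. Replicates 1 to 3 of both groups had high Xist (11.1 to 11.4 with crystals plus CD, 10.9 to 11.1 untreated), whereas replicates 4 and 5 had it at 4.31 and 4.39 with crystals plus CD and at 4.31 and 4.28 untreated. Both groups thus held the same balance of the Xist-high and Xist-low arrays, and the arrays were spread over several slides. Slide 1 held 3 arrays of crystals plus CD and 1 untreated array, and slide 4 held 1 of each.

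Of 14422 genes tested, 2337 changed (16.2%), 1079 upward (7.48%) and 1258 downward (8.72%). By at least 1 on the log2 scale, 277 rose and 234 fell. On the deposited log2 values without normalization, 104 rose and 32 fell. The median change over all genes was -0.01. For 720 of the genes that rose and 809 of those that fell, no array of one group overlapped the other group, against 5.73% and 6.64% of all genes without overlap in the upward and downward direction. The largest rise was that of Acod1, the enzyme that makes itaconate in activated macrophages, by 5.74 (SE 0.75, adjusted p = 2.35e-06), whereas Cytip, an adaptor that restrains leukocyte adhesion, fell by 3.63 (SE 0.42, adjusted p = 4.04e-07). With slide as a fixed block 1720 genes changed. Each gene was read from its probe of highest mean. Of the called genes, 1043 had another probe detected on at least 4 arrays. In 160 of them such a probe had the opposite sign, and in 3 it was called in the opposite direction. Since the arrays hold bulk RNA, fewer cells of a type and less RNA per cell cannot be told apart.

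**Figure D1:**
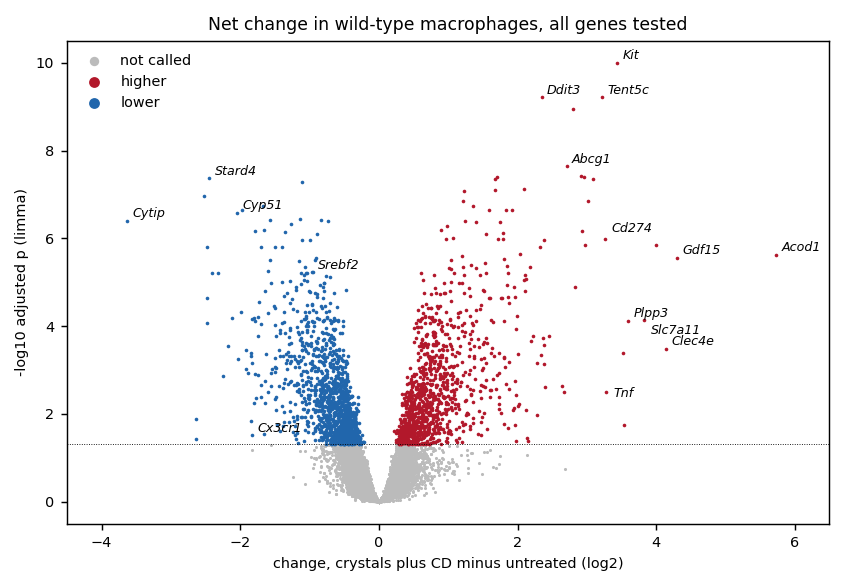
Each point is 1 of the 14422 genes, with its change (crystals plus CD minus untreated, log2) on the horizontal axis and -log10 of limma's adjusted p on the vertical axis; the dotted line marks 0.05. Acod1, Gdf15 and Clec4e lie farthest to the right, Cytip farthest to the left, and Kit and Ddit3 are among the genes with the smallest adjusted p.

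Among the LXR target genes, 8 of 21 tested rose (38.1%) and 1 fell (4.76%), with a median change of 0.39. Over all genes 7.48% rose and 8.72% fell, the shares beside which this and the later list counts stand. The list named 24 genes, all on the array, and 3 were left out as too dim. The list was uneven over the arrays: its median change was 0.12 in replicates 4 and 5 and 0.68 in replicates 1 to 3, and it was 0.60 within slide 1 and -0.02 within slide 4. Relative to the untreated mean, the list median was 0.09 in replicate 4 with crystals plus CD and 0.22 in untreated replicate 4. Abcg1, which exports cholesterol to HDL, read 10.25, 10.85, 11.05, 10.04 and 10.13 in cells given crystals plus CD, against 7.56, 7.94, 7.88, 7.78 and 7.61 in untreated cells. The 2 groups lay more than 2 units apart on every array, and the rise was 2.71 (SE 0.26, adjusted p = 2.28e-08). Eepd1, an LXR target that sustains ABCA1 protein, read 8.35, 8.48, 8.89, 7.97 and 8.01 with crystals plus CD, against 6.00, 6.21, 5.97, 6.74 and 6.34 untreated, a rise of 2.09 (SE 0.22, adjusted p = 7.69e-08) without overlap. Abca1, the exporter of cholesterol to lipid-free apolipoprotein, averaged 5.27 ± 0.27 with crystals plus CD (SD, n = 5) and 4.37 ± 0.08 untreated (n = 5). It was not well above background on any untreated array, so it was at least 1.51-fold higher with crystals plus CD (adjusted p = 0.000132), a bound set by the dimmest detected probe of each untreated array.

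Lipogenic LXR targets were among those that rose. Srebf1, which directs fatty acid synthesis, rose by 0.81 (SE 0.16, adjusted p = 0.000626), and the desaturases Scd1 and Scd2 rose by 1.12 (SE 0.26, adjusted p = 0.00278) and 1.14 (SE 0.30, adjusted p = 0.00651). Scd2 levels in replicates 1 to 3 with crystals plus CD were 6.65, 7.17 and 7.12, against 5.85 and 5.74 in replicates 4 and 5, and the untreated arrays ran from 4.85 to 5.79, so the groups overlapped. Nr1h3, which encodes LXRα, rose by 1.19 (SE 0.21, adjusted p = 0.000127), while Nr1h2, which encodes LXRβ, stood at -0.01 (SE 0.23, adjusted p = 0.985). The groups overlapped for Nr1h3. Its change was 0.55 with crystals alone, 0.78 with CD alone and 0.94 with crystals plus CD in dko cells. Acsl3, which activates fatty acids, was the member that fell, by 0.75 on the log2 scale (SE 0.16, adjusted p = 0.00107). Apoe, the lipid carrier that LXR raises in many macrophages, stood at -0.05 and was not called.

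Genes of sterol synthesis and uptake moved the other way: 17 of 24 tested fell, none rose, and the median change was -0.87. Of the 26 listed genes, 24 were on the array. Stard4, which carries cholesterol between membranes, read 6.40, 6.49, 5.74, 6.70 and 6.00 with crystals plus CD, against 8.68, 8.56, 8.53, 8.95 and 8.85 untreated, and fell by 2.45 on the log2 scale (SE 0.25, adjusted p = 4.28e-08). Cyp51, the lanosterol demethylase, read 6.71, 7.04, 7.06, 7.39 and 6.93 with crystals plus CD, against 8.98, 9.27, 8.94, 9.20 and 8.95 untreated, and fell by 2.04 (SE 0.23, adjusted p = 2.61e-07). In both genes every array of crystals plus CD lay below every untreated array.

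Enzymes from the early and the late part of the pathway were among those that fell, but not all of them did. The early enzyme Idi1 stood at -0.64 and was not called (SE 0.27, adjusted p = 0.11). Fdps, which makes farnesyl pyrophosphate, fell by 1.60 (SE 0.22, adjusted p = 5.58e-06), and Srebf2, which encodes SREBP2 itself, fell by 0.96 (SE 0.13, adjusted p = 5.95e-06). Insig1, which retains SREBP in the endoplasmic reticulum, read 7.26, 7.03, 6.67, 6.59 and 6.77 with crystals plus CD, against 8.72, 8.61, 8.98, 8.38 and 8.77 untreated. These groups did not overlap, yet the change of -1.83 missed the threshold (SE 0.68, adjusted p = 0.0656). The model shares 1 spread over all groups, and Insig1 had an SD of 1.23 in dko cells with crystals plus CD and 1.70 in untreated dko cells. Fitted on the 2 wt groups alone it was called at adjusted p = 3.5e-05. Mvd and Lss, other enzymes of the pathway, fell by 0.62 and 0.70, calls that were lost in 9 and 4 of 10 fits that each left out 1 array. The sterol response element, searched as TCACNCCAC, was in 0 of 17 promoter windows of the list, against 1.44% of 27025 genes with a window. In the list as a whole each array of crystals plus CD gave a median between -1.13 and -0.70 relative to the untreated mean.

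Genes of fatty acid synthesis were split, with 3 of 13 up, 3 down and a median of 0.11. Beside Scd1 and Scd2, Mid1ip1, an activator of acetyl-CoA carboxylase, rose by 1.18 (SE 0.22, adjusted p = 0.000283). The desaturase Fads1 fell by 0.76 (SE 0.12, adjusted p = 6.39e-05) and the elongase Elovl6 by 0.90 (SE 0.23, adjusted p = 0.00624). Of 19 genes of cholesterol storage and transport, 4 rose and 1 fell. Soat2, which esterifies cholesterol for storage, read 7.01, 6.58, 6.62, 7.79 and 7.37 with crystals plus CD, against 4.98, 5.01, 5.32, 5.58 and 5.27 untreated, a rise of 1.84 (SE 0.27, adjusted p = 1.15e-05) without overlap. Gramd1b, which moves cholesterol from the plasma membrane to the endoplasmic reticulum, rose by 1.40 (SE 0.16, adjusted p = 4.27e-07). Cyp27a1, a mitochondrial enzyme that makes an oxysterol ligand of LXR, fell by 1.17 (SE 0.28, adjusted p = 0.003).

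The integrated stress response, in which the transcription factor ATF4 raises genes of amino acid supply and of stress-induced death, was the list with the highest share of rising members. Of 33 tested, 23 rose and none fell, with a median of 0.80, and every array of crystals plus CD had a list median between 0.70 and 0.87 above the untreated mean. Ddit3, the transcription factor CHOP, read 9.61, 9.44, 9.46, 9.46 and 9.38 with crystals plus CD, against 6.94, 7.19, 7.04, 7.30 and 7.15 untreated, a rise of 2.35 (SE 0.19, adjusted p = 6.13e-10). Trib3, a pseudokinase induced by CHOP, read 10.62, 9.94, 9.96, 10.52 and 10.10 with crystals plus CD, against 7.32, 7.0, 7.67, 7.31 and 7.24 untreated, a rise of 2.92 (SE 0.29, adjusted p = 3.84e-08). Neither gene showed overlap between the groups.

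Chac1, which degrades glutathione, rose by 2.83 (SE 0.41, adjusted p = 1.31e-05), and Gdf15, a secreted stress hormone, by 4.30 (SE 0.57, adjusted p = 2.74e-06). The cystine transporter Slc7a11 read 9.63, 8.58, 9.04, 9.92 and 10.13 with crystals plus CD, against 5.42, 5.35, 4.76, 6.45 and 6.20 untreated, with 4 of 5 untreated arrays above background. Its rise was 3.83 (SE 0.64, adjusted p = 7.17e-05). The alanyl-tRNA synthetase Aars rose by 1.29, the folate enzyme Mthfd2 by 1.51, and Atf4 itself by 0.80. Sesn2, a sensor of amino acid shortage, was below background on all untreated arrays and was at least 1.53-fold higher with crystals plus CD (means 5.29 and 4.41, adjusted p = 0.00526). Slc6a9, a glycine transporter, changed by 1.0 without passing the test (adjusted p = 0.0546). By contrast 1 of 24 genes of ER chaperones and ER-associated degradation rose, and the list median was -0.02. That gene was Herpud1, which takes part in ER-associated degradation, at 0.96 (SE 0.27, adjusted p = 0.0103), and the chaperone Hspa5 stood at -0.10 (adjusted p = 0.897).

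Promoter windows from RefSeq (build GRCm38.p6, from 250 bases before to 50 after each gene's start) were searched on both strands for short motifs, as a description. The lists were drawn up by pathway, so a share above that of all genes does not bear on the change. The C/EBP-ATF element was searched as TTGCATCA and TGATGNAA. It was found in 9 of the 27 members of the stress response list that had a window (33.3%), against 4.51% of all 27025 genes with a window. Of called members with a window, 8 of 20 held it. The stretch of Chac1 is shown because the gene rose and its match lies 193 bases before the start (chr2:119350992-119351116, plus strand). Capitals mark the match.
Chac1: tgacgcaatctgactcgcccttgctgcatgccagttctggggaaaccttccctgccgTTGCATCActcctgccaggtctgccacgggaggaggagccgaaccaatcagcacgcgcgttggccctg

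Of 23 genes of the NRF2 oxidative stress response, 8 rose and none fell, with a median of 0.24. Slc7a11 counts both here and in the stress response list, and other lists share members too, so the list counts are not independent. Gsta3, a glutathione transferase, read 9.81, 9.20, 9.15, 8.28 and 8.59 with crystals plus CD, against 6.35, 5.57, 6.00, 5.91 and 6.12 untreated, a rise of 3.02 (SE 0.33, adjusted p = 1.38e-07). Hmox1, which degrades haem, was uneven, with 12.03, 10.02, 12.40, 11.09 and 11.76 in crystals plus CD and 9.65, 9.77, 9.68, 10.09 and 9.89 in untreated cells. The second array of crystals plus CD overlapped the untreated range, and the rise was 1.64 (SE 0.36, adjusted p = 0.0016). Srxn1, a repair enzyme of peroxiredoxins, rose by 1.23 (SE 0.21, adjusted p = 8.46e-05), whereas Txnrd1 and Nfe2l2, the gene of NRF2, stood at 0.72 and 0.66 and were not called. The antioxidant element TGACNNNGC occurred in 8 of 19 windows of the list (42.1%), against 14% of all genes, and in 2 of 7 windows of called members. Of 15 heat shock genes 3 rose and 1 fell, with a median of 0.01. Hspa1a, an inducible HSP70, read 7.50, 6.14, 6.81, 6.24 and 6.05 with crystals plus CD, against 4.83, 4.69, 4.54, 4.69 and 4.58 untreated, where 3 of 5 arrays detected it, a rise of 1.88 (SE 0.44, adjusted p = 0.00266). The heat shock element GAANNTTC was in 9 of 12 windows of that list (75%), against 9.04% of all genes, and in 3 of 3 windows of called members. Hspa8 and Hsph1, other chaperones, were called, but each call was lost in 7 of 10 fits that left out 1 array.

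Lysosomal genes rose in part. Of 15 tested subunits of the proton pump that acidifies lysosomes, 7 rose and none fell, with a median of 0.42, and of 29 other lysosomal genes 6 rose and 1 fell, with a median of 0.18. Atp6v1h, a subunit of the pump's catalytic part, read 12.29, 12.01, 12.15, 12.01 and 11.96 with crystals plus CD, against 10.98, 10.89, 10.81, 11.38 and 11.14 untreated, a rise of 1.04 (SE 0.14, adjusted p = 3.18e-06) without overlap. Atp6v0d1 rose by 0.65 (SE 0.10, adjusted p = 1.75e-05), Ctsz, a lysosomal protease, by 1.02 (SE 0.18, adjusted p = 0.000187), and Mcoln1, the calcium channel of the lysosome, by 0.66 (SE 0.17, adjusted p = 0.00673). Asah1, the acid ceramidase, fell by 0.34 (SE 0.10, adjusted p = 0.0218). The E-box TCACGTGA, the motif of the lysosomal regulator TFEB, was in 4 of 23 windows of the lysosome list (17.4%) and in 3 of 10 of the pump list (30%), against 1.12% of all genes. Of called members it was in 2 of 5 windows of the lysosome list and 1 of 4 of the pump list. Mcoln1 is shown because it rose and carries the motif 46 bases before its start (chr8:3500413-3500518, plus strand).
Mcoln1: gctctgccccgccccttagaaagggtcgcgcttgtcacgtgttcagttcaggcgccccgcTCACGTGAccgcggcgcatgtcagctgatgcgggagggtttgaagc

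Of 30 autophagy genes, 10 rose and 5 fell. The nutrient-sensing GTPase Rragd rose by 1.80 (SE 0.24, adjusted p = 3e-06), and the receptors Optn and Sqstm1, which deliver cargo to autophagosomes, by 1.79 (SE 0.22, adjusted p = 1.04e-06) and 1.64 (SE 0.31, adjusted p = 0.000311). The kinase Ulk2, which starts autophagy, fell by 1.10 (SE 0.14, adjusted p = 1.1e-06), and Uvrag, a partner of Beclin, by 0.91 (SE 0.15, adjusted p = 4.8e-05). The list median was 0.14, and whether genes of the same step of autophagy moved together was not tested.

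**Figure D2:**
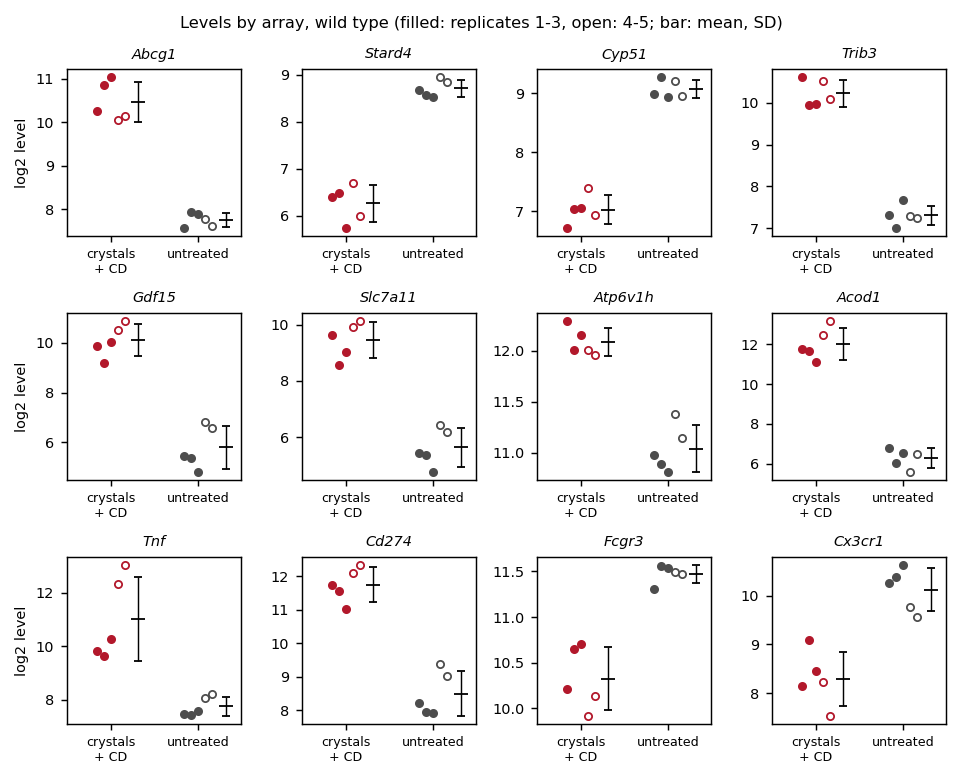
Normalized log2 level of 12 genes on each of the 5 arrays given crystals plus CD (left, red) and the 5 untreated arrays (right, grey); filled points are replicates 1 to 3, open points 4 and 5, and bars show mean and SD. In all 12 genes the groups do not overlap, a condition of the rule for the largest changes, which named some of them, such as Tnf. In Tnf the open points with crystals plus CD (12.33 and 13.05) lie above the filled ones (9.64 to 10.28).

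A part of the inflammatory genes rose, with more spread between arrays. Of 16 NF-kB subunits and inhibitors 7 rose and none fell (median 0.78), of 13 chemokines 8 rose and 1 fell (1.49), of 18 cytokines and mediators 5 rose and 2 fell (0.23), and of 13 costimulatory and activation molecules 4 rose and none fell (1.06). Acod1 read 11.75, 11.65, 11.08, 12.44 and 13.17 with crystals plus CD, against 6.80, 6.03, 6.55, 5.57 and 6.47 untreated. Tnf, the cytokine, read 9.82, 9.64, 10.28, 12.33 and 13.05 with crystals plus CD, against 7.47, 7.41, 7.58, 8.04 and 8.22 untreated, a rise of 3.28 (SE 0.78, adjusted p = 0.00319). The groups did not overlap for either gene, as the choice of the largest rises required, and replicates 4 and 5 of crystals plus CD were the highest in both.

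Tnfaip3, the A20 protein that ends NF-kB signalling, rose by 2.34 (SE 0.46, adjusted p = 0.000449), and Relb, an NF-kB subunit, by 1.13 (SE 0.22, adjusted p = 0.000399). Tnip1, a partner of A20, read 10.60, 10.64, 11.26, 11.76 and 11.97 with crystals plus CD, against 9.68, 10.14, 10.10, 9.93 and 9.71 untreated, a rise of 1.33 (SE 0.32, adjusted p = 0.00354). Nfkbia, the inhibitor IκBα, stood at 1.32 and was not called (adjusted p = 0.0794). The NF-kB motif, searched as GGGNTTTCC and GGGANTTCC, was in 7 of 13 windows of the NF-kB list (53.8%) and in 3 of 8 of the chemokine list (37.5%), against 3.41% of all genes. Of called members 4 of 6 NF-kB windows and 1 of 4 chemokine windows held this motif. Tnip1 (chr11:54962941-54963057, minus strand) and the chemokine gene Cxcl10 (chr5:92348924-92349052, minus strand) are shown because both rose and carry it. In Tnip1, 2 matches on opposite strands overlap and begin 57 bases before the start, and in Cxcl10 the match begins 103 bases before it.
Tnip1: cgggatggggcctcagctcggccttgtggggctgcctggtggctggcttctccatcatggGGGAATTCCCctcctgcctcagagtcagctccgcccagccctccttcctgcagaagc
Cxcl10: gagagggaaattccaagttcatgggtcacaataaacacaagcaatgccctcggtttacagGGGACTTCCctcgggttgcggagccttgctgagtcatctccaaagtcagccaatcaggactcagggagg

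Cxcl10, which attracts T cells, read 6.65, 7.45, 6.86, 8.38 and 9.84 with crystals plus CD, against 5.47, 5.74, 5.12, 4.68 and 4.78 untreated, a rise of 2.68 (SE 0.64, adjusted p = 0.00312). Cxcl2, which attracts neutrophils, rose by 3.54 (SE 1.06, adjusted p = 0.0181), and the call was lost without replicate 4 (adjusted p = 0.0523) or replicate 5 (adjusted p = 0.0672) of crystals plus CD. Cxcl14 fell by 1.12 (SE 0.24, adjusted p = 0.00129). Clec4e, a receptor for necrotic cells and glycolipids, read 10.94, 10.91, 10.48, 11.45 and 12.24 with crystals plus CD, against 7.18, 7.41, 7.03, 6.71 and 6.96 untreated, a rise of 4.14 (SE 0.79, adjusted p = 0.000325). Cd274, the checkpoint ligand PD-L1, rose by 3.26 (SE 0.40, adjusted p = 1.05e-06), and Cd40, the receptor of CD40 ligand, by 2.39 (SE 0.55, adjusted p = 0.00243). For Clec4e and Cd274, picked among the largest rises without overlap, and for Cd40, no array of crystals plus CD overlapped an untreated one.

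Not all mediators of inflammation rose. Il1rn, the interleukin 1 receptor antagonist, rose by 2.32 (SE 0.30, adjusted p = 1.6e-06), but Il18 fell by 1.08 (SE 0.15, adjusted p = 9.09e-06) and the inhibitory cytokine Il10 by 0.93 (SE 0.21, adjusted p = 0.00233). Il1a was below background on all untreated arrays and at least 3.26-fold higher with crystals plus CD (means 6.38 and 4.40, adjusted p = 0.0426). Of 13 inflammasome genes, 1 rose and 4 fell, with a median of -0.21. The rising gene was Casp4, the sensor of cytosolic lipopolysaccharide (1.16, SE 0.35, adjusted p = 0.0204), although of its 2 other probes 1 stood at -0.10. Txnip, a binder of thioredoxin, fell by 0.95 (SE 0.28, adjusted p = 0.0164). Nlrp3, the crystal sensor, was detected on 4 of 5 arrays with crystals plus CD and on 1 of 5 untreated arrays, and its change of 1.01 was not called (adjusted p = 0.131). The calls of Casp4 and Txnip were each lost without 3 of the 10 arrays, taken out in turn.

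Interferon-stimulated genes rose in 7 of 28 cases and fell in none, with a median of 0.42. Relative to the untreated mean, the list median on single arrays ran from 0 to 0.84 with crystals plus CD. On untreated arrays it ran from -0.44 to 0.51, so the groups overlapped. The median change was 0.31 within slide 1 and 1.41 within slide 4. Gbp2, a guanylate-binding GTPase, read 9.52, 10.20, 9.52, 10.54 and 11.10 with crystals plus CD, against 8.09, 8.74, 7.54, 7.09 and 7.53 untreated, a rise of 2.38 (SE 0.49, adjusted p = 0.00073). Rsad2, the antiviral protein viperin, rose by 2.38 as well (SE 0.44, adjusted p = 0.000265). The interferon response motif GAAANNGAA was in 14 of 21 windows of the list (66.7%), against 9.76% of all genes, and in 3 of 6 windows of called members. Gbp2 is shown because it carries the motif 58 bases before its start (chr3:142620545-142620662, plus strand) and rose.
Gbp2: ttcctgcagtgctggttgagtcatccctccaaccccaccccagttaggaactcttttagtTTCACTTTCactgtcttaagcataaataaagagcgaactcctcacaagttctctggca

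Among Toll-like receptors and their signalling genes, 3 of 19 rose and 4 fell. Tlr2, a receptor for bacterial lipoproteins, rose by 1.09 (SE 0.28, adjusted p = 0.00592). Tlr4, the lipopolysaccharide receptor, read 9.13, 9.22, 8.91, 8.70 and 8.67 with crystals plus CD, against 9.92, 9.79, 9.73, 9.77 and 9.80 untreated, and it fell by 0.88 without overlap (SE 0.16, adjusted p = 0.000191). Of 15 immediate early genes 1 rose and 3 fell: Egr2 rose by 1.80 (SE 0.36, adjusted p = 0.000534), and Fos fell by 0.92 (SE 0.19, adjusted p = 0.000843). Of 17 genes of the BCL2 family and cell death, 5 rose and 1 fell. The pro-apoptotic Bid rose by 1.08 (SE 0.15, adjusted p = 6.16e-06), the death receptor Fas by 1.98 (SE 0.48, adjusted p = 0.00377) and the survival gene Bcl2a1d by 1.53 (SE 0.35, adjusted p = 0.00245), while the pro-apoptotic Bmf fell by 1.79 (SE 0.39, adjusted p = 0.00124).

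Some receptors that guide macrophages fell. Of 18 chemoattractant receptors and adhesion genes, 5 fell and none rose, with a median of -0.21. Cytip, a member of that list, read 8.39, 9.21, 8.52, 7.75 and 7.63 with crystals plus CD, against 12.01, 12.98, 12.33, 10.97 and 11.34 untreated. The groups lay more than 1 unit apart. Cx3cr1, the fractalkine receptor, fell by 1.84 (SE 0.60, adjusted p = 0.0306) without overlap, but the call was lost in 6 of 10 fits that each left out 1 array, with adjusted p between 0.0258 and 0.0859.

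Of 23 macrophage identity genes, 3 fell and none rose, and the median was -0.13. They were Cx3cr1 and the Fc receptors Fcgr3 and Fcgr1, which bind antibody, at -1.15 (SE 0.23, adjusted p = 0.000472) and -1.43 (SE 0.45, adjusted p = 0.0246), and the call of Fcgr1 was lost in 4 of 10 such fits. Lyz2, Csf1r and Adgre1, general macrophage genes, stood at -0.13, -0.12 and -0.22 and were not called. The largest changes of the list that were not called went both ways, at -0.77 for Cd14 and 0.73 for Spi1. Of 27 cell cycle genes 9 fell and none rose, with a median of -0.30, among them the licensing factor Cdc6 by 0.62 (SE 0.15, adjusted p = 0.0034) and the nucleotide reductase Rrm1 by 0.57 (SE 0.15, adjusted p = 0.00571), whereas the proliferation marker Mki67 stood at 0.11. None of 9 genes of MHC class II presentation was called, and of 13 housekeeping genes 1 fell, with a median of 0.00. Of 22 genes of hypoxia and glycolysis 4 rose and 1 fell (median 0.12), of 24 respiratory chain genes 2 rose and none fell (-0.09), and of 17 genes of efferocytosis and scavenging 2 fell and none rose (-0.14). The shares that fell among macrophage identity (13%) and efferocytosis genes (11.8%) lay near the 8.72% of all genes. So did the share of respiratory chain genes that rose (8.33%), against 7.48% of all genes.

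Several of the most changed genes belong to no list described so far. Kit, the receptor of stem cell factor, read 8.17, 7.88, 8.66, 7.27 and 7.45 with crystals plus CD, against 4.33, 4.27, 4.26, 4.62 and 4.75 untreated, where 2 of 5 arrays detected it, a rise of 3.44 (SE 0.25, adjusted p = 9.96e-11). Kit was also 1 of 10 erythroid and mast cell markers on the array, and of the others 6 were not above background on any of the 10 arrays, among them Gata1, Mcpt4 and Ms4a2. Tent5c, which lengthens poly(A) tails, rose by 3.22 (SE 0.26, adjusted p = 6.13e-10), the endothelin receptor Ednrb by 4.00 (SE 0.51, adjusted p = 1.39e-06) and the lipid phosphatase Plpp3 by 3.60 (SE 0.60, adjusted p = 7.48e-05). Among the falls were the uptake transporter Slco2b1 (-2.64, SE 0.75, adjusted p = 0.0131), Rhobtb1 (-2.48, SE 0.42, adjusted p = 8.69e-05), Gpr155, a cholesterol-sensing protein of the lysosome (-2.48, SE 0.38, adjusted p = 2.3e-05), and Mxd4, a repressor of the MYC network (-2.41, SE 0.34, adjusted p = 6.28e-06).

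Markers of other cell types were weighed by their summed intensity. B cell markers summed to 252 to 342 units with crystals plus CD and 422 to 586 untreated, mainly through Ighm, the heavy chain of IgM, whose change of -1.24 was not called (adjusted p = 0.272), with Pax5 and Blk below background on all 10 arrays. T cell markers summed to 741 to 1090 units with crystals plus CD and 753 to 1280 untreated, with Cd3e and Trac below background on all 10 arrays. Of this list Cd8b1 averaged 9.28 with crystals plus CD and 9.58 untreated and was not called, and Cd28, a costimulatory receptor, rose by 1.10 (SE 0.27, adjusted p = 0.00453), both detected on all 10 arrays. Neutrophil markers summed to 564 to 707 units with crystals plus CD and 498 to 651 untreated, and dendritic cell markers to 210 to 229 with crystals plus CD and 205 to 230 untreated. Stromal markers varied more within a group than between groups, at 1340 to 6330 units with crystals plus CD and 1640 to 6440 untreated. Erythroid and mast cell markers summed to 335 to 590 units with crystals plus CD and 204 to 227 untreated, and among them Kit was detected on all 5 arrays of crystals plus CD and each of the others on at most 1. Osteoclast markers summed to 802 to 1280 units with crystals plus CD and 910 to 1310 untreated. The part of these markers in the results was not tested.

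The same genes were set beside the single treatments, which share the untreated arrays with the comparison, so that no overlap between them is given. The median of the sterol list was -0.87 with crystals plus CD, -0.91 with crystals alone and 1.0 with CD alone. For the stress response it was 0.80 with crystals plus CD, 0.87 with crystals alone and 0.16 with CD alone, and for the proton pump 0.42, 0.44 and 0.02 in these groups. For NF-kB it was 0.78 with crystals plus CD, -0.09 with crystals alone and 0.83 with CD alone, and for the chemokines 1.49, 0.26 and 0.96. Stard4 levels averaged 6.27 ± 0.39 with crystals plus CD, 6.60 ± 0.63 with crystals alone, 9.91 ± 0.09 with CD alone and 8.71 ± 0.18 untreated (SD, n = 5 each). Cxcl10 averaged 7.84 ± 1.31 with crystals plus CD, 5.42 ± 0.26 with crystals alone, 7.85 ± 1.26 with CD alone and 5.16 ± 0.45 untreated (SD, n = 5 each).

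**Figure D3:**
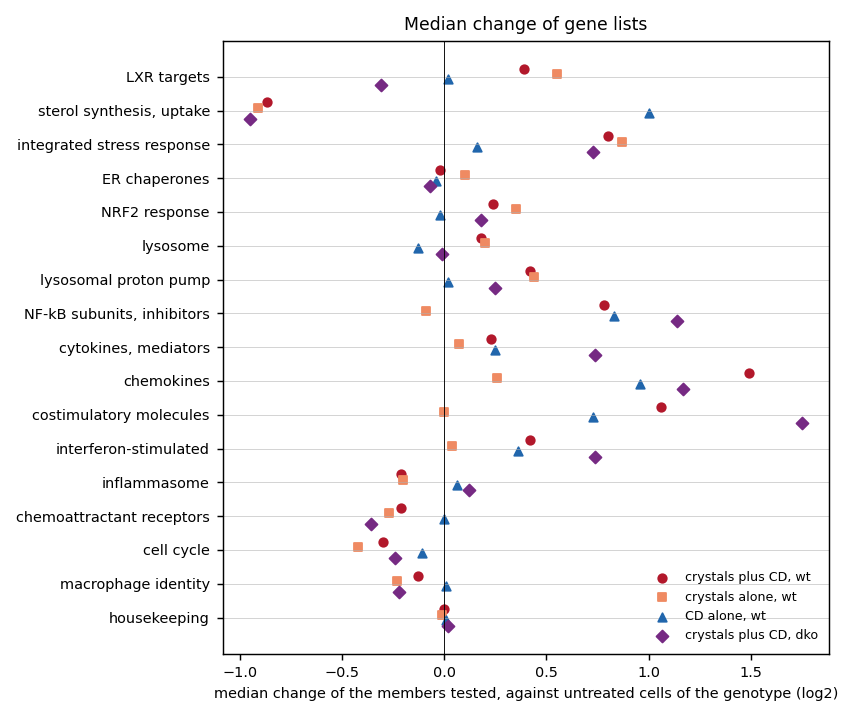
Median log2 change of each gene list over its members tested, against untreated cells of the same genotype, for crystals plus CD in wt (circles), crystals alone in wt (squares), CD alone in wt (triangles) and crystals plus CD in dko (diamonds); the 3 wt values share the untreated arrays. The sterol list lies at -0.87 with crystals plus CD and at 1.0 with CD alone.

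Where the difference between treatments could be tested, the untreated arrays cancelled. Against CD alone, 1095 of 14422 genes differed (7.59%), 581 higher (4.03%) and 514 lower (3.56%) with crystals plus CD. The count was 442 with slide as a fixed block and 99 with replicates 4 to 9 alone. Of the sterol list, 22 of 24 members were lower than with CD alone, with a median difference of -2.0. Their differences were -3.64 for Stard4 (SE 0.25, adjusted p = 1.86e-12), -3.50 for Cyp51 (SE 0.23, adjusted p = 1.41e-12) and -2.93 for Insig1 (SE 0.68, adjusted p = 0.00483). Abcg1 was higher by 5.13 than with CD alone (SE 0.26, adjusted p = 2.49e-15), and Eepd1 by 3.24 (SE 0.22, adjusted p = 1.86e-12). Of the stress response genes 18 of 33 were higher, of the proton pump 6 of 15 and of the NRF2 list 7 of 23, whereas of the NF-kB list none was higher and 1 of 16 was lower, and of the chemokines none of 13 differed.

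Against crystals alone, limma called 0 genes (0%), while 1042 had p under 0.05 before adjustment and the lowest adjusted p was 0.0543. The count depended on single arrays: it was 37 without replicate 1 of crystals plus CD, 1 without replicate 3 of crystals plus CD, 5 without replicate 2 of crystals alone, 6 without replicate 5 and 2 without replicate 3 of untreated cells, and 0 without each of the other 10 arrays of these groups. It was 33 with replicates 4 to 9 alone, 19 with array weights, and 5 and 7 with slide as a fixed and a random block. The list medians of this difference, crystals plus CD minus crystals alone, were 0.85 for NF-kB, 0.82 for costimulatory molecules, 0.64 for chemokines and 0.61 for interferon-stimulated genes, against -0.05 for the sterol list, -0.05 for the stress response and -0.01 for all genes. Nfkbie, an NF-kB inhibitor, differed by 2.07, Cxcl10 by 2.42 and Rsad2 by 1.60, and none of them was called. A p that misses the threshold does not show that the treatments act alike.

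Whether the net change differed on the log2 scale from the sum of the changes by crystals alone and by CD alone was tested with all 4 wt groups. Of all genes 7 departed from the sum (0.0485%), 1 upward (0.00693%) and 6 downward (0.0416%). Abcg1 lay 2.14 above the sum (SE 0.37, adjusted p = 0.00495): its level was 10.46 ± 0.45 with crystals plus CD, 10.74 ± 0.37 with crystals alone, 5.33 ± 0.50 with CD alone and 7.75 ± 0.17 untreated (SD, n = 5 each). The median departure of the sterol list was -1.07, and 2 of its 24 members were called, the enzymes Mvd and Lss. They lay below the sum by -2.20 (SE 0.30, adjusted p = 0.000368) and -1.58 (SE 0.30, adjusted p = 0.0217), and Aacs, which activates acetoacetate for lipid synthesis, by -1.44 (SE 0.21, adjusted p = 0.000682). For Mvd the levels were 6.34 ± 0.28 with crystals plus CD, 6.75 ± 0.21 with crystals alone, 8.75 ± 0.54 with CD alone and 6.96 ± 0.15 untreated. The level with crystals plus CD thus lay near that of crystals alone in all 4 genes, and far from that of CD alone. The other 3 genes had names of the array design only, LOC100040592, LOC666559 and 8030402P03RIK, and all lay below the sum. The count was 12 without replicate 4 of crystals plus CD and 12 without replicate 2 of crystals alone. The call of Lss was lost in 7 of 20 fits that each left out 1 array of the 4 groups. Those of Abcg1, Mvd and Aacs were lost in none of these. In 13 other alternatives of processing, arrays or model, the call was lost in 5 for Abcg1, 4 for Lss, 4 for Aacs and 3 for Mvd.

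The change by crystals plus CD was also set against that in dko cells. The probes of the deleted genes do not check the genotype: Nr1h3 averaged 9.81 ± 0.14 in untreated dko cells (SD, n = 4) and 9.52 ± 0.29 in untreated wt cells (n = 5), Nr1h2 averaged 9.36 ± 0.14 in untreated dko and 8.89 ± 0.33 in untreated wt cells, and no source used here says where the probes lie relative to the deletions. The change differed between genotypes for 6 genes (0.0416%), all with a lower change in dko cells. Abcg1 averaged 8.04 ± 0.55 with crystals plus CD and 8.77 ± 0.20 untreated in dko cells, against 10.46 ± 0.45 and 7.75 ± 0.17 in wt cells, and the difference of the changes was -3.44 (SE 0.39, adjusted p = 6.34e-06). Eepd1 differed by -2.56 (SE 0.33, adjusted p = 4.99e-05), Scd2 by -2.37 (SE 0.44, adjusted p = 0.0308) and Srebf1 by -1.30 (SE 0.24, adjusted p = 0.0308). Hilpda, a lipid droplet protein, differed by -1.12 (SE 0.22, adjusted p = 0.0451), and 6430530L21RIK, a name of the array design, by -1.05 (SE 0.21, adjusted p = 0.0451). Of the 21 LXR targets 4 were among the 6. The difference was called for Abcg1 and Eepd1 in each of 18 fits that left out 1 array of the 4 groups, while Srebf1 lost it in 12, Scd2 in 12 and Hilpda in 14 of them. The count of 6 lay between 2 and 6 in these fits. It was 2 or 3 without dko replicates 6, 8 or 9 with crystals plus CD, dko replicates 6, 7 or 9 untreated, wt replicates 1, 2 or 3 with crystals plus CD, and wt replicates 1 or 3 untreated.

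The median change of the LXR targets was -0.31 in dko cells and 0.39 in wt cells. That of the sterol list was -0.95 in dko and -0.87 in wt cells, that of the stress response 0.73 in dko and 0.80 in wt cells, that of NF-kB 1.14 in dko and 0.78 in wt cells, and that of interferon-stimulated genes 0.74 in dko and 0.42 in wt cells. In wt replicates 4 and 5, which share slides with the dko arrays, the wt median was 1.48 for NF-kB, above that of dko cells, 0.61 for interferon-stimulated genes and 0.12 for the LXR targets. Stard4 changed by -1.95 in dko cells and -2.45 in wt cells, and Trib3 by 2.33 in dko and 2.92 in wt cells, with no called difference between the genotypes. The dko arrays lie on slides without wt replicates 1 to 3, and with wt replicates 4 and 5 alone the count of genes that differed between genotypes was 3.

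**Figure D4:**
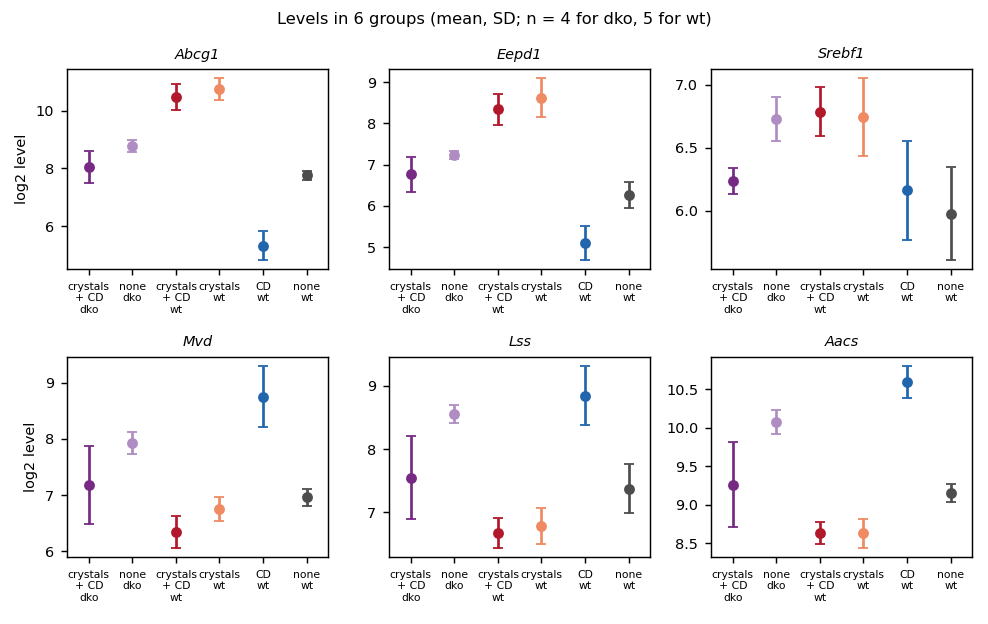
Mean normalized log2 level and SD of 6 genes in dko cells (crystals plus CD, untreated; n = 4 each) and wt cells (crystals plus CD, crystals alone, CD alone, untreated; n = 5 each). Abcg1 and Eepd1 are high in the wt groups that received crystals and low with CD alone, and Mvd, Lss and Aacs show the opposite order.

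The inflammatory part of the change was among the uneven ones between arrays. The list median relative to the untreated mean was 0.32, 0.28 and 0.35 for NF-kB in replicates 1 to 3 with crystals plus CD, against 1.13 and 1.45 in replicates 4 and 5, and 1.04, 0.79 and 0.74, against 1.96 and 2.44, for the chemokines. For cytokines and mediators it was 0.05, 0.06 and 0.13 in replicates 1 to 3, against 0.64 and 0.92 in replicates 4 and 5. Untreated arrays ran from -0.05 to 0.11 in that list. Replicates 4 and 5 also differed from 1 to 3 in Xist and in slide, so these cannot be told apart. The difference of the changes, replicates 4 and 5 minus 1 to 3, was then fitted over the 20 wt arrays, a test chosen after these values were seen. Of 14422 genes, 145 differed (1.01%), 99 with a higher (0.686%) and 46 with a lower change (0.319%) in replicates 4 and 5, and 59 of the 145 were among the 2337 genes of the net change.

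Il1b, the inflammasome cytokine, read 8.88 and 9.79 with crystals plus CD and 5.49 and 5.15 untreated in replicates 4 and 5, and 6.03, 6.56 and 5.63 with crystals plus CD and 8.77, 9.99 and 8.55 untreated in replicates 1 to 3. It thus changed by 4.02 in replicates 4 and 5 and by -3.03 in replicates 1 to 3, a difference of 7.05 (SE 0.80, adjusted p = 0.000228), whereas over all 5 replicates it stood at -0.21 and was not called. Cxcl1, which attracts neutrophils, changed by 5.52 in replicates 4 and 5 and 0.80 in 1 to 3 (difference 4.72, adjusted p = 0.00213), and Socs3, a brake on cytokine signalling, by 4.30 and 0.03 (difference 4.27, adjusted p = 0.000184). Of the lists, 6 of 13 chemokines, 5 of 16 NF-kB genes, 4 of 18 cytokines, 4 of 13 costimulatory genes and 4 of 15 feedback inhibitors had a higher change in replicates 4 and 5. None of the 24 sterol, 33 stress response, 29 lysosome or 15 proton pump genes was called as different in either direction. The median change was 0.23 in replicates 4 and 5 and 0.57 in 1 to 3 for the proton pump, 0.06 and 0.25 for the lysosome list, -0.77 and -0.99 for the sterol list, and 0.73 and 0.83 for the stress response. Within slide 1 and slide 4 the medians were 0.47 and 1.70 for NF-kB, -1.18 and -1.0 for the sterol list, and 0.76 and 0.78 for the stress response.

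**Figure D5:**
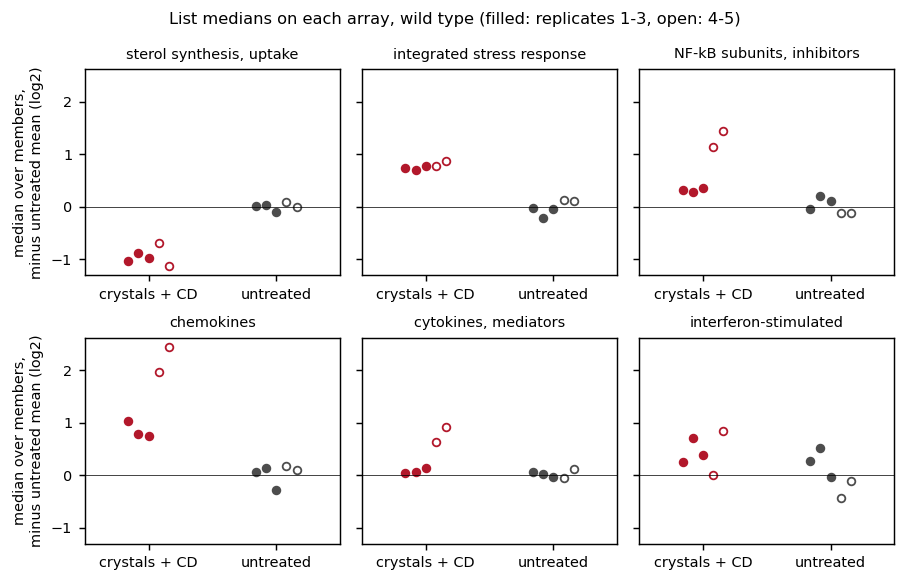
Median of each list on each array, as log2 level minus the untreated mean of each gene, for crystals plus CD (left, red) and untreated (right, grey) wt arrays; filled points are replicates 1 to 3, open points 4 and 5. The sterol and stress response lists are even over the 5 arrays of crystals plus CD, and the NF-kB list stands at 1.13 and 1.45 in replicates 4 and 5 but at 0.28 to 0.35 in replicates 1 to 3.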

How the data were processed

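The samples were 36 Illumina bead arrays of mouse bone marrow-derived macrophages in 8 groups of genotype and treatment, of which 10 arrays carry the comparison reported. The authors deposited raw probe intensity values with a detection p-value per probe, per the file headers. The authors' deposited series matrix held log2 values that differed from log2 of the same intensity by at most 5.57e-05, so no normalization had been applied to them. Partek is named in the submitters' processing notes, with no version stated there. How many arrays a group holds limits the precision.

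Intensity was corrected by normexp from the detection p-values, with an offset of 16, quantile-normalized and log2-transformed (neqc of limma 3.58.1, R 4.3.3). Probes with detection p under 0.05 on at least 4 arrays were kept (21126), and each gene took its probe of highest mean, which left 14422 genes, 2756 of them under the name in the file. A linear model over 36 arrays and 8 groups (lmFit and eBayes, 28 residual degrees of freedom, 3.94 prior) gave each contrast, with Benjamini-Hochberg adjustment over all genes and a call at 0.05. Genes were named by rule: the 12 largest rises and 12 largest falls among called genes whose groups did not overlap, in each list up to 4 called members of smallest adjusted p and up to 2 of the largest changes not called, the deleted genes, and up to 6 genes in each direction for each difference. Outside the rule, genes with a well-known role (Apoe, Hmox1, Atf4, Aars, Mthfd2, Asah1, Acsl3, Hspa5, Sesn2, Il1a, Il1b, Fas, Mki67 and general markers) were added after their values were seen. A few members of the lists are counted but not reported by name. The members and the lists were chosen with earlier results of these data known, and the split of replicates 4 and 5 against 1 to 3 was added after the data were seen. The model was tested on simulated data. Alternatives changed the background correction, scaling, filter, choice of probe, arrays fitted, slide and replicate block, array weights, and left out each array of the 2 groups in turn, and, added after the data were seen, each array of the groups set against them. No array of the 2 groups duplicated another, since replicates differed by a root mean square of at least 0.28 on the log2 scale.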

Additional observations from a re-analysis of the deposited data

Results flagged for a closer look

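In 364 groups of 5 arrays for named genes, 17 held an array far from the other 4 by Dixon's criterion, and chance gives about 1 in 20. With crystals plus CD, replicate 1 stood apart high in Gramd1b (11.3), Slc6a9 (7.85) and Bcl2 (6.86). Replicate 3 stood apart high in Ticam1 (6.84) and Ndrg1 (9.15) and low in Atg5 (10.4). Replicate 4 stood apart high in Fdps (9.44) and low in Naglu (8.89) and Rpl13a (9.21), and replicate 5 low in Fads1 (11.3), Atp6v0d1 (11.4), Cd163 (4.17) and Aacs (8.38). Of the untreated arrays, replicate 2 stood apart low in Chac1 (6.94) and high in Fcgr1 (10.6) and H2-DMa (8.72), and replicate 4 high in Maff (4.52).

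The change by crystals plus CD differed between dko and wt cells, dko minus wt, for Abcg1 (-3.44), Eepd1 (-2.56), Scd2 (-2.37), Srebf1 (-1.30), Hilpda (-1.12) and 6430530L21RIK (-1.05). Between replicates 4 and 5 and replicates 1 to 3 of wt it was higher for Il1b (7.05), Cxcl1 (4.72), Fpr2 (4.66), Socs3 (4.27), Cd69 (3.43) and Ccl5 (3.37), and lower for Tbc1d2 (-1.67), Jun (-1.19), Nceh1 (-1.04) and Flcn (-0.94). These sets of replicates also differed in Xist and slide.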

How the results depend on the processing

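The count of 2337 genes was 560 with median scaling, 136 on the deposited log2 values, 636 with replicates 4 to 9 alone, 54 within slide 1 and 511 with a change of at least 1 required, and 1842 to 2335 when each of the 10 arrays was left out in turn. Of 124 named calls, 106 were kept in all 10 of those fits. Nlrc4 and Nr4a2, called as falls, stood at 0.06 and 0.07 with replicates 4 to 9 alone, and the cause was not tested. Against crystals alone the count of 0 was 3 without background correction, 1 with the mean of a gene's probes, 5 with slide as a fixed block, 7 with slide as a random block, 5 with replicates 1 to 3 alone, 33 with replicates 4 to 9 alone, 19 with array weights, and 0 to 37 with arrays left out. Against CD alone the count of 1095 was 202 with median scaling, 79 on the deposited values, 674 with the groups compared alone, 442 with slide as a fixed block and 99 with replicates 4 to 9 alone, and 732 to 1274 with arrays left out. Between genotypes the count of 6 was 1 with median scaling, 1 on the deposited values, 3 without background correction, 2 without the detection filter, 3 with slide as a fixed block, 3 with replicates 4 to 9 alone, 13 with array weights, and 2 to 6 with arrays left out. Departures from the sum numbered 7, but 0 with median scaling, 0 on the deposited values, 14 without background correction, 12 with detection p under 0.01, 12 with the mean of probes, 11 with the groups compared alone, 12 and 13 with slide as a fixed and a random block, 3 and 1 with replicates 1 to 3 and 4 to 9 alone, 12 with array weights, and 6 to 12 with arrays left out. A replicate block gave 2904 genes changed, 48 differed from crystals alone (34 higher, 14 lower), 1510 from CD alone, 11 between genotypes and 12 from the sum. The numbers were not taken as pairing the samples, since the labels do not tie them to a source and the pair of replicate 3 correlated at -0.0358. The deviations of the other 4 pairs correlated at 0.635, 0.373, 0.524 and 0.497, and each of those arrays correlated best with its own number, a hint from the data. For single named genes, 3886 refitted changes kept their status as called or not called, 398 lost the call, 105 gained it and 2 called changes reversed. A change called in neither fit was counted as kept whatever its direction. Bounds are given only for genes detected on no array of a group. Genes detected on some untreated arrays, such as Kit, Hspa1a and Nlrp3, are given as changes although those levels lie near background.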
